A study of Mus musculus with 4 samples.

Results

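The SLAM family is a group of immunoglobulin-like receptors on the surface of blood cells, and its 9 members studied here are Cd244, Cd48, Cd84, Ly9, Slamf1, Slamf6, Slamf7, Slamf8 and Slamf9. They were taken by gene symbol, and all 9 were found among the 22026 genes of the deposited tables. The family was singled out because Cd244 was much higher in RBP-J KO than in WT. Differences of the members between these groups are therefore described without a test.

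RNA came from macrophages grown from the bone marrow of C57BL/6 mice of 8 weeks, cultured for 3 days with CMG14-12 supernatant as a source of M-CSF, the macrophage growth factor, at the equivalent of 20 ng/ml. The RBP-J KO group (Rbpj f/f;LysM cre; 2 libraries) lacks Rbpj, the DNA-binding protein of the Notch pathway, in cells that have expressed Cre from the Lyz2 (LysM) gene of myeloid cells. The WT group (wildtype control; 2 libraries) is given with no further allele, and whether these mice carried Cre is not stated. The question addressed is how macrophage transcripts differ when RBP-J is missing. Values are FPKM as the authors deposited them, a level scaled for the length of a transcript and the size of its library, and pair 1 and pair 2 are the libraries of equal replicate number.

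SLAM receptors bind one another across cell contacts. Most are their own ligands, while Cd244 (2B4) binds Cd48, a lipid-anchored member with no cytoplasmic tail. The tails of most other members carry tyrosine motifs that recruit the small adaptors SAP (Sh2d1a) and EAT-2 (Sh2d1b1), and in their absence inhibitory phosphatases. The family is best known from T and NK cells, and macrophages use some of its members in phagocytosis and in the handling of bacteria.

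Rbpj itself was at 51.5 and 77 FPKM in the RBP-J KO libraries and at 355 and 573 FPKM in the WT libraries, in order of replicate number, a gene-level value that does not show which exons remain. All 8 macrophage markers listed (Csf1r, Emr1, Itgam, Cd68, Mrc1, Mertk, Fcgr1, Lyz2) were above 0 in every library. By any amount, 3 were lower and 2 higher in RBP-J KO in both pairs, beside 4043 and 2971 of 11851 genes tested. Lyz2, the source of Cre, was at 94.3 and 115 FPKM in RBP-J KO and at 218 and 192 FPKM in WT. Mrc1 was at 813 and 2807 FPKM in RBP-J KO and at 1351 and 4263 FPKM in WT. The replicate numbers differ technically, since the replicate 1 files have a row for each gene and the replicate 2 files a row for each transcript. They also differ in sex, with Ddx3y of the Y chromosome at 174 FPKM in RBP-J KO and 193 FPKM in WT replicate 1 and listed at 0 in both replicate 2 libraries. With limma and Benjamini-Hochberg adjustment 0 of the 11851 genes tested, those averaging 1 FPKM or more, reached an adjusted p under 0.05 (0%), the smallest being 0.294, and 524 genes (4.42%) had an unadjusted p under 0.05. The read depth is unknown. No label says that replicates are separate mice, but the difference in sex means that the 2 libraries of a group came from different mice. The spread between libraries includes that difference and may also be partly technical. In bulk RNA, fewer cells of a type and less RNA per cell cannot be told apart.

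Cd244 stood apart from the rest of its family. It was at 51.7 and 102 FPKM in RBP-J KO replicates 1 and 2, and at 2.67 and 2.54 FPKM in WT replicates 1 and 2. Both RBP-J KO libraries lay far above both WT libraries, and the WT libraries were almost equal. The FPKM ratio was 19.4 in pair 1 and 40.1 in pair 2. Both ratios rest on WT values near the bottom of the measured range, for which no counting error can be given. On the log2(FPKM + 1) scale, which understates the change of low genes, the difference was 4.35 (SE 0.40), with 3.84 in pair 1 and 4.86 in pair 2. No gene tested had a larger difference over the 4 libraries; 19 genes had a larger one in pair 1 and 1 gene in pair 2. In level, Cd244 was above 6.83% of the tested genes in WT replicate 1 and 7.37% in WT replicate 2, against 44.7% in RBP-J KO replicate 1 and 65.3% in RBP-J KO replicate 2.

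Cd48, the ligand of Cd244, was among the most abundant members in every library, and it differed little between the groups. It was at 914 and 848 FPKM in RBP-J KO and at 697 and 723 FPKM in WT. Its groups did not overlap either, but the FPKM ratio was only 1.31 in pair 1 and 1.17 in pair 2. Among all genes tested, 11.7% were higher in RBP-J KO with groups that do not overlap, and among the members this held for Cd244 and Cd48, or 2 of 9. In the other direction it held for 18.2% of all genes and for 0 members. The level of Cd48 was 17.7 and 8.32 times that of Cd244 in the RBP-J KO libraries, and 261 and 285 times in the WT libraries.

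**Figure D1:**
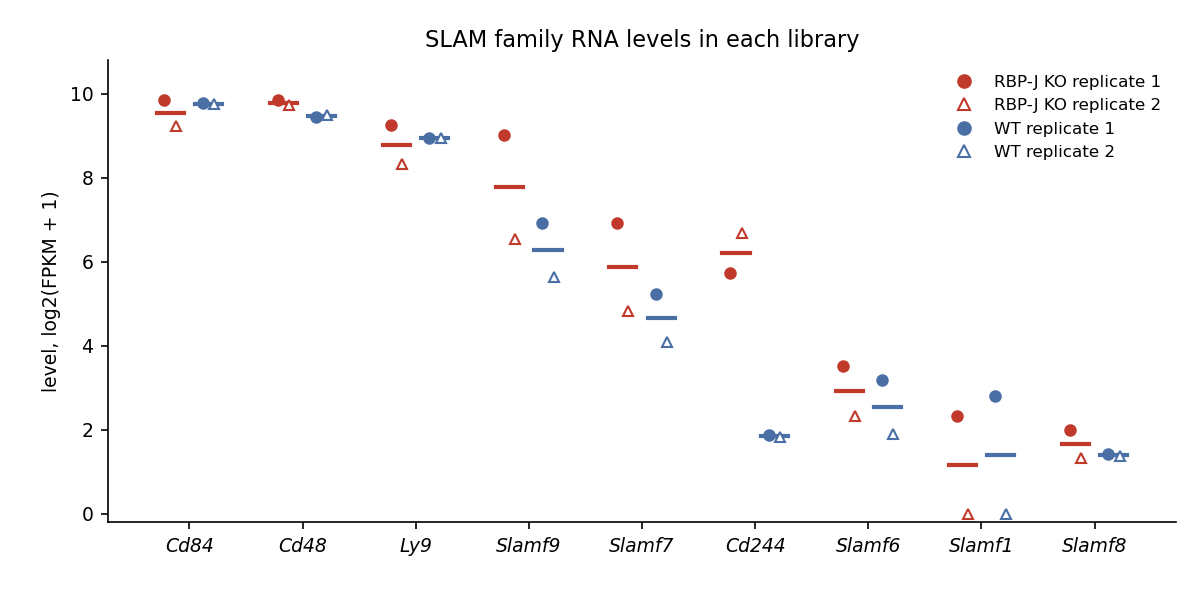
Level of each SLAM family member on a log2(FPKM + 1) axis, ordered by mean level. Points are single libraries and short bars the mean of 2 libraries on that scale. Cd244 shows the widest gap between RBP-J KO (51.7 and 102 FPKM) and WT (2.67 and 2.54 FPKM), while Cd84, Cd48 and Ly9 lie at the top in both groups.

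Slamf9 and Slamf7 were also higher in both pairs, by smaller amounts and with a large spread. Slamf9 is a short member without the tyrosine motifs of most others, and is known from macrophages and dendritic cells. It was at 516 and 92.2 FPKM in RBP-J KO and at 120.2 and 49.0 FPKM in WT. Slamf7 (CRACC), a self-ligand that takes part in phagocytosis together with the integrin Mac-1, was at 119 and 27.2 FPKM in RBP-J KO and at 36.8 and 16.1 FPKM in WT. In both genes RBP-J KO replicate 1 was by far the highest library, and RBP-J KO replicate 2 lay below WT replicate 1, so that the groups overlapped. Inside the pairs the FPKM ratio of Slamf9 was 4.29 and 1.88, and that of Slamf7 was 3.24 and 1.69. The log2 difference was 1.496 (SE 0.94) for Slamf9 and 1.20 (SE 0.82) for Slamf7. Leaving out 1 library makes the replicate numbers unequal between the groups, so such values also hold the difference between replicate numbers. Without RBP-J KO replicate 1 the log2 differences of Slamf9 and Slamf7 were 0.26 and 0.15. Without RBP-J KO replicate 2 they were 2.73 and 2.24. Without WT replicate 1 they were 2.14 and 1.77, and without WT replicate 2 they were 0.86 and 0.63.

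With Cd244, these made 3 of 9 members at least 1.5-fold higher in both pairs on the log2(FPKM + 1) scale, and 0 members were lower by that much. Of all genes tested, 7.48% passed in this sense, 3.86% higher and 3.63% lower. This contrast chose the family, and nothing is read from the share. Across the 9 members the log2 differences had a median of 0.31, with 0.39 in pair 1 and 0.23 in pair 2, beside -0.05 over all genes tested. The median was -0.079 without RBP-J KO replicate 1, and 0.93 without RBP-J KO replicate 2 and 1.03 without WT replicate 1.

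The upstream sequences of the 3 members that were higher in both pairs are shown because RBP-J binds DNA directly and because Cd244 differed from Slamf9 and Slamf7 in its content of letters of the known RBP-J motif. Windows are the 250 bases before the gene start in RefSeq (GRCm38.p6, chromosome 1), written 5′ to 3′ on the strand of the gene, with TGGGAA and its reverse complement TTCCCA in capitals. The expression values were made on another build, mm9.
Cd244 (RefSeq Cd244a), chr1:171558943-171559192, plus strand: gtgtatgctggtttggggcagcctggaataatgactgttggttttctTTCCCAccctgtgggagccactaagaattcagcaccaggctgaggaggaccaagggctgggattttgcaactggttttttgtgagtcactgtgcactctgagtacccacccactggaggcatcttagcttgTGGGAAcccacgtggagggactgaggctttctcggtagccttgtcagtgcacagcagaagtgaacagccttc
Slamf9, chr1:172475110-172475359, plus strand: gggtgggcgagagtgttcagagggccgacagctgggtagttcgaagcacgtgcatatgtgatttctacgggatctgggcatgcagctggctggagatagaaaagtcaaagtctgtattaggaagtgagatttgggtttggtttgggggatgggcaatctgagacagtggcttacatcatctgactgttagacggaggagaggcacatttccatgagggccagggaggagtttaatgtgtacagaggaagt
Slamf7, chr1:171649000-171649249, minus strand: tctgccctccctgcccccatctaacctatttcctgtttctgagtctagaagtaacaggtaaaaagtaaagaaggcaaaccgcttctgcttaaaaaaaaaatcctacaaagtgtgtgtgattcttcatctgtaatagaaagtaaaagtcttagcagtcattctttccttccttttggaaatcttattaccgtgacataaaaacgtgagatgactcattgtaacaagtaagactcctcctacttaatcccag

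The Cd244 window holds the longer form GTGGGAA, which contains TGGGAA, in 2 places. One copy lies on the strand of the gene, from 73 to 67 bases before the start, and the other on the opposite strand, from 203 to 197 bases before it. Neither motif was found in the windows of Slamf9 and Slamf7. Of the 8 members with a window in the table, Cd244 alone held GTGGGAA, and Slamf1 held TGGGAA once. Of the 20 SLAM signalling partners with a window, described further on, 7 held TGGGAA. Among them Inpp5d alone held GTGGGAA, with a log2 difference of 0.29 (SE 0.32). Bend6, Emr4 and Mmp13, whose profiles were among the 5 most like that of Cd244, held neither motif in their windows. Ccnd2 and Gbp8, the others of these 5, had no window. Of 32851 RefSeq windows of this length, counting both strands, 21.6% held TGGGAA and 5.42% held GTGGGAA, and 0.161% held GTGGGAA at least 2 times. The motifs were chosen after the expression values were known, and a match of letters is not a binding site. The count of at least 2 is what the Cd244 window holds, so nothing is read from its share.

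Cd84 and Ly9 are self-ligands with cytoplasmic tyrosine motifs, and both were abundant in these macrophages. Cd84 was at 921 and 603 FPKM in RBP-J KO and at 870 and 858 FPKM in WT, and Ly9 was at 605 and 321 FPKM in RBP-J KO and at 494 and 489 FPKM in WT. The WT libraries were nearly equal in both genes, RBP-J KO replicate 1 lay above them and RBP-J KO replicate 2 below. The pairs therefore differed in sign, with log2 differences of 0.08 and -0.51 for Cd84 and of 0.29 and -0.61 for Ly9. Over the 4 libraries the log2 difference was -0.21 (SE 0.27) for Cd84 and -0.16 (SE 0.35) for Ly9. Without RBP-J KO replicate 1 it was -0.52 for Cd84 and -0.62 for Ly9, and without RBP-J KO replicate 2 it was 0.09 and 0.30.

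Slamf6, Slamf1 and Slamf8 were near the bottom of the measured range. Slamf6 (Ly108), a self-ligand of lymphocytes, was at 10.5 and 4.02 FPKM in RBP-J KO and at 8.12 and 2.71 FPKM in WT. Slamf1, the founding member and a sensor of bacteria in macrophages, was at 4.03 FPKM in RBP-J KO and 5.97 FPKM in WT replicate 1, and listed at 0 in both replicate 2 libraries. Slamf8, known to restrain the phagocyte oxidase in mouse macrophages, was at 2.97 and 1.49 FPKM in RBP-J KO and at 1.67 and 1.59 FPKM in WT. The groups overlapped in all 3 genes, and the log2 differences were 0.38 (SE 0.66) for Slamf6, -0.24 (SE 1.29) for Slamf1 and 0.26 (SE 0.47) for Slamf8. Inside pair 1 and pair 2 they were 0.33 and 0.44 for Slamf6, -0.47 and 0 for Slamf1, and 0.57 and -0.06 for Slamf8. Each direction over the 4 libraries turned when certain single libraries were left out. Such a comparison has unequal replicate numbers in the groups, so it mixes genotype with replicate number. Slamf6 ranged from -0.27 without WT replicate 2 to 1.03 without WT replicate 1, and was -0.21 without RBP-J KO replicate 1 and 0.98 without RBP-J KO replicate 2. Slamf1 ranged from -1.64 without WT replicate 2 to 1.17 without WT replicate 1, and was -1.40 without RBP-J KO replicate 1 and 0.93 without RBP-J KO replicate 2. Slamf8 ranged from -0.079 without RBP-J KO replicate 1 to 0.59 without RBP-J KO replicate 2.

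For Slamf1 and Slamf6 the difference between replicate numbers was larger in both groups than that between genotypes in either pair. For Slamf7 and Slamf9 it was of similar size. Given as replicate 1 minus replicate 2 on the log2(FPKM + 1) scale, the difference for Slamf9 was 2.47 in RBP-J KO and 1.28 in WT. It was 2.09 in RBP-J KO and 1.14 in WT for Slamf7, and 1.19 in RBP-J KO and 1.30 in WT for Slamf6. For Slamf1, listed at 0 in replicate 2 of both groups, it was 2.33 in RBP-J KO and 2.80 in WT. Cd244 ran the other way in RBP-J KO, with -0.96, and was level in WT, with 0.05. Cd48 was level in both, with 0.11 in RBP-J KO and -0.05 in WT. Cd84, Ly9 and Slamf8 differed between replicate numbers in RBP-J KO, with 0.61, 0.91 and 0.67. In WT these 3 were level, with 0.02, 0.01 and 0.04.

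As deposited, and resting on the authors' scaling by length, the order of levels was led by Cd84, Cd48 and Ly9 in every library. In RBP-J KO, Cd48 averaged 881 ± 46.6 FPKM, Cd84 762 ± 225 FPKM and Ly9 463 ± 201 FPKM (SD, n = 2). In WT, Cd84 averaged 864 ± 8.52 FPKM, Cd48 710.3 ± 18.6 FPKM and Ly9 492 ± 3.16 FPKM (SD, n = 2), steps larger than the spread. Slamf9 at 304 ± 299.9 FPKM, Cd244 at 76.8 ± 35.5 FPKM and Slamf7 at 73.2 ± 65.1 FPKM (SD, n = 2) followed in RBP-J KO. Each of these 6 members overlapped its neighbour in the RBP-J KO order, and their RBP-J KO libraries, Cd48 included, differed more from each other than the WT libraries did. In WT, Slamf9 followed at 84.6 ± 50.4 FPKM and Slamf7 at 26.4 ± 14.6 FPKM (SD, n = 2). The levels of Slamf6, Slamf1 and Cd244 in WT were 5.42 ± 3.83, 2.99 ± 4.22 and 2.61 ± 0.09 FPKM (SD, n = 2), and Slamf6 and Slamf1 varied by more than the steps between them. Cd244 ranked 6 and 4 among the 9 members in the RBP-J KO libraries, and 8 and 7 in the WT libraries. It made up 1.64% and 5.10% of the summed family FPKM in RBP-J KO, and 0.119% in each WT library.

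**Figure D2:**
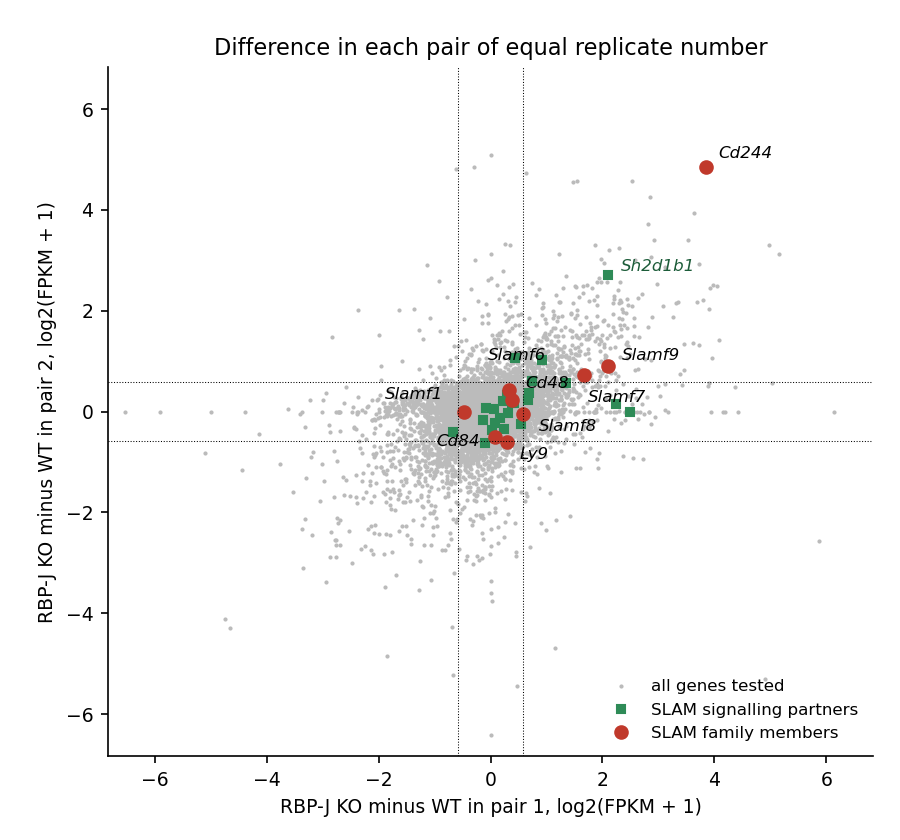
Difference RBP-J KO minus WT on the log2(FPKM + 1) scale in pair 1 (horizontal axis) and pair 2 (vertical axis) for the 11851 genes tested (grey), the SLAM signalling partners (squares) and the SLAM family members (circles). Dotted lines mark 1.5-fold; Cd244 lies at 3.84 and 4.86, beyond nearly all genes, and Slamf9 and Slamf7 lie past the lines in both pairs.

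The genes with the profile most like that of Cd244 over the 4 libraries were Bend6, Ccnd2, Emr4, Gbp8 and Mmp13, by the smallest Euclidean distance between centred log2(FPKM + 1) values. Bend6, a BEN domain protein, was the nearest at a distance of 0.79, with 52.7 and 60.1 FPKM in RBP-J KO and 3.33 and 2.98 FPKM in WT. Ccnd2, a D-type cyclin, followed at 0.95, Emr4, an adhesion receptor, at 1.41, Gbp8, a guanylate-binding protein, at 1.45 and the collagenase Mmp13 at 1.64. Bend6, Ccnd2 and Mmp13 were, like Cd244, highest in RBP-J KO replicate 2, at 60.1, 211 and 736 FPKM. Emr4 and Gbp8 were highest in RBP-J KO replicate 1. No other SLAM member was close, the nearest being Slamf9 at a distance of 3.85, which ranked 565 among 11850 genes. With 4 libraries, this likeness is a description of a single large step between the groups.

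The adaptors that transmit SLAM signals were scarce. Sh2d1a, which encodes SAP and links SLAM tails to the kinase Fyn in lymphocytes, was listed at 0 in all 4 libraries. Sh2d1b1, which encodes EAT-2, the adaptor of innate immune cells, was at 14.4 and 5.57 FPKM in RBP-J KO and at 2.58 and 0 FPKM in WT. Both RBP-J KO libraries lay above both WT libraries, but the gene did not pass the test (log2 difference 2.41, SE 0.82; adjusted p = 0.999 with limma and Benjamini-Hochberg). Its neighbouring copy Sh2d1b2 was at 4.63 FPKM in RBP-J KO replicate 1 and listed at 0 in the other 3 libraries. The copies are similar in sequence, so the division of reads between them is uncertain.

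Of the 28 partner genes with an entry, 26 were measured. Of these, 0 passed the test over all genes, the smallest adjusted p being 0.999 with limma and Benjamini-Hochberg. An unadjusted limma p under 0.05 was reached by 3 of 26, beside 4.42% of all genes. At least 1.5-fold in both pairs were 3 higher, Sh2d1b1 and Cybb among them, and 0 lower, or 3 of 26 beside the 3.86% of all genes. The median log2 difference of the 26 was 0.29, with 0.34 in pair 1 and 0.16 in pair 2, beside -0.05 over all genes tested. Cybb, the catalytic subunit of the phagocyte oxidase, which Slamf1 helps to regulate on phagosomes in the mouse, was at 2075 and 1647 FPKM in RBP-J KO and at 1235 and 1085 FPKM in WT, with groups that did not overlap. Fyn, the kinase bound by SAP, was at 94.4 and 151.17 FPKM in RBP-J KO and at 151.55 and 201 FPKM in WT. It was lower in both pairs, and its groups were only just apart. Of the 7 kinases measured, 5 were higher and 2 lower in both pairs by any amount, beside 2971 and 4043 of 11851 genes tested. The median log2 difference of the 7 was 0.75. Groups that do not overlap were found in 11.7% of all genes with higher values in RBP-J KO and in 18.2% with lower values.

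The inhibitory phosphatases were far more abundant than the adaptors. Ptpn6 (SHP-1) was at 1354 and 1039 FPKM in RBP-J KO and at 845 and 805 FPKM in WT. Its groups did not overlap, which held in this direction for 11.7% of all genes. Inpp5d (SHIP-1) was at 709 and 465 FPKM in RBP-J KO and at 565 and 387 FPKM in WT, and Ptpn11 (SHP-2) at 165 and 141 FPKM in RBP-J KO and at 175 and 134 FPKM in WT. The groups overlapped in both. The phagosome partners of Slamf1, Becn1, Pik3c3, Pik3r4 and Uvrag, had log2 differences between -0.07 and 0.14. Itgam, a chain of Mac-1, was at 1416 and 1162 FPKM in RBP-J KO and at 964 and 1384 FPKM in WT. Itgb2, its partner chain, was at 1494 and 1137 FPKM in RBP-J KO and at 1259 and 1454 FPKM in WT. The pairs differed in sign for both chains. Cd2, the other receptor of Cd48, was at 1.17 and 0 FPKM in RBP-J KO and at 0.92 and 0 FPKM in WT, below the level needed for the test.

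**Figure D3:**
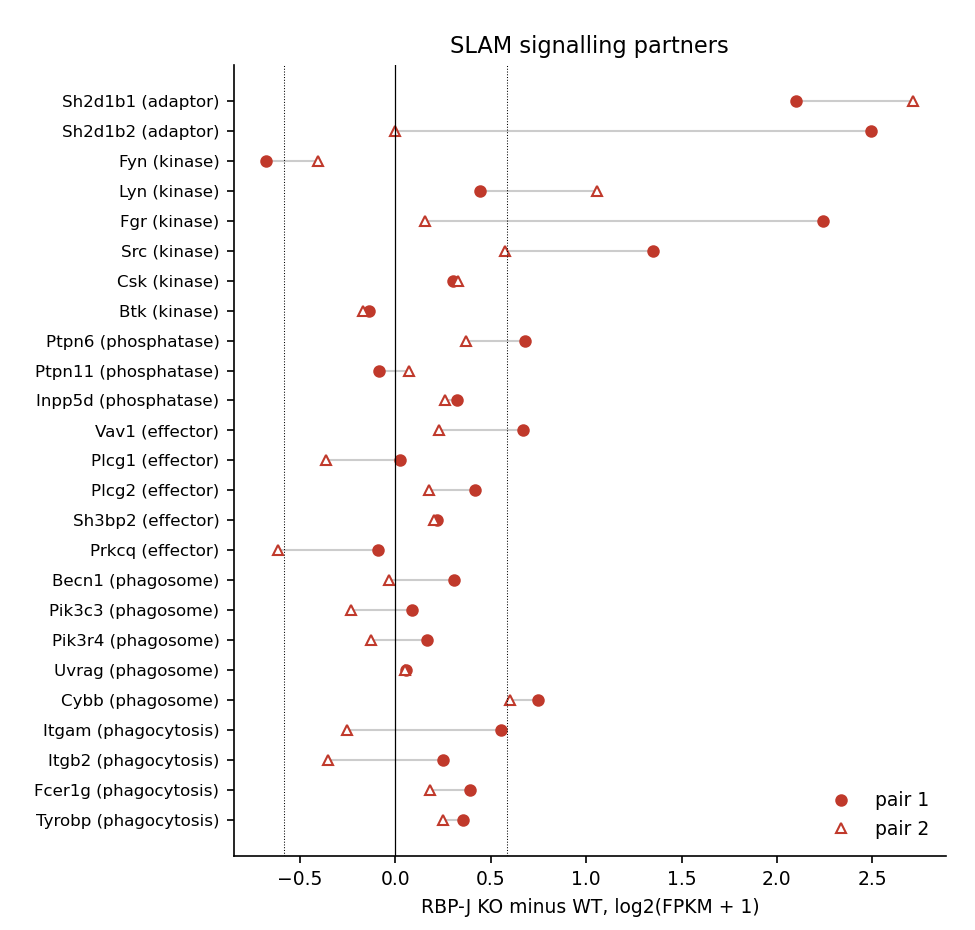
Difference RBP-J KO minus WT on the log2(FPKM + 1) scale in pair 1 (filled circles) and pair 2 (open triangles) for measured SLAM signalling partners, grouped by role, with dotted lines at 1.5-fold. Sh2d1b1 and Cybb lie to the right of the line in both pairs. Fgr, Src, Sh2d1b2, Ptpn6 and Vav1 do so in pair 1 alone, and Lyn in pair 2 alone. To the left of the other line lie Fyn in pair 1 alone and Prkcq in pair 2 alone.

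Cd244 is best known from NK cells, and the markers of other cell types were therefore set beside it. Of 7 NK cell markers, Ncr1, Gzma, Prf1 and Eomes were listed at 0 in all 4 libraries. The summed level of the 7 was 17.1 and 7.44 FPKM in RBP-J KO and 2.36 and 0.75 FPKM in WT, made up mainly of Klrd1 in RBP-J KO replicate 1 (13.6 FPKM) and of Klrk1, the receptor NKG2D, at 3.29 and 7.44 FPKM in RBP-J KO and 0.44 and 0.75 FPKM in WT. Of 6 T cell markers, Cd3d was listed at 0 throughout, and the sum was 40.8 and 18.7 FPKM in RBP-J KO and 31.2 and 18.8 FPKM in WT. That sum was mainly Cd247, at 31.5 and 18.7 FPKM in RBP-J KO and at 30.1 and 18.8 FPKM in WT. Cd247 was the only T cell marker above 0 in the replicate 2 libraries. The 6 mast cell and basophil markers summed to 39.4 and 3.53 FPKM in RBP-J KO and to 7.80 and 0 FPKM in WT. The part of these cells in the Cd244 values was not tested.

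Each of the 8 marker lists, macrophages included, had its highest sum in RBP-J KO replicate 1, the library in which Slamf9 and Slamf7 were also highest. Of all genes tested, 2971 of 11851 were higher in RBP-J KO in both pairs by any amount, and the counts of markers stand beside that share. The 7 dendritic cell markers summed to 77.4 and 2.77 FPKM in RBP-J KO and to 7.14 and 2.39 FPKM in WT, with 3 of 7 higher in both pairs. The 5 B cell markers summed to 37.2 and 25.95 FPKM in RBP-J KO and to 18.5 and 6.93 FPKM in WT, with 1 of 5 higher in both pairs, namely Cd79b, at 20.7 and 25.95 FPKM in RBP-J KO and at 9.90 and 6.93 FPKM in WT. The 8 neutrophil markers with an entry summed to 8252 and 946 FPKM in RBP-J KO and to 6937 and 268 FPKM in WT, with 6 of 8 higher in both pairs, and 5 of 5 progenitor markers were higher in both pairs, summing to 99.4 and 18.0 FPKM in RBP-J KO and to 44.2 and 5.81 FPKM in WT. The part of these cells in the values of Slamf9, Slamf7 and Slamf6 was not tested.

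The SLAM genes lie together on mouse chromosome 1. In RefSeq the order is Cd244, Ly9, Slamf7, Cd48, Slamf1, Cd84 and Slamf6, followed after 14 other protein-coding genes by Slamf9 and Slamf8. The large difference of Cd244 was not shared by the adjacent Ly9, and the other members from Ly9 to Slamf6 ranged from -0.24 (Slamf1) to 1.20 (Slamf7) in log2 difference. Of 25 neighbouring genes, 17 were measured, and 0 passed the test over all genes (smallest adjusted p 0.569 with limma and Benjamini-Hochberg; 4 at an unadjusted p under 0.05). At least 1.5-fold in both pairs were 3 higher and 1 lower of the 17, beside 3.86% higher and 3.63% lower of all genes, and 4.42% of all genes had an unadjusted p under 0.05. Pvrl4, a nectin adhesion molecule, was at 61.6 and 61.2 FPKM in RBP-J KO and at 29.4 and 29.8 FPKM in WT. Kcnj10, a potassium channel, was at 385 and 228 FPKM in RBP-J KO and at 173 and 79.4 FPKM in WT. Itln1, an intelectin gene and the nearest listed neighbour before Cd244, was at 3.84 and 1.80 FPKM in RBP-J KO and listed at 0 in both WT libraries. Itln1 entered the test through its RBP-J KO values alone. It is counted among the 3 higher genes and among the 4 with an unadjusted limma p under 0.05, so nothing is read from these counts. Vangl2, a planar polarity protein and the first gene after Slamf6, was at 1.83 and 3.11 FPKM in RBP-J KO and at 7.17 and 5.45 FPKM in WT. In RefSeq, an annotated gene that the deposited tables do not list under that symbol overlaps 5 of the members (Cd244, Cd84, Slamf6, Slamf7 and Slamf9), and without stated strand its reads cannot be told apart from theirs.

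**Figure D4:**
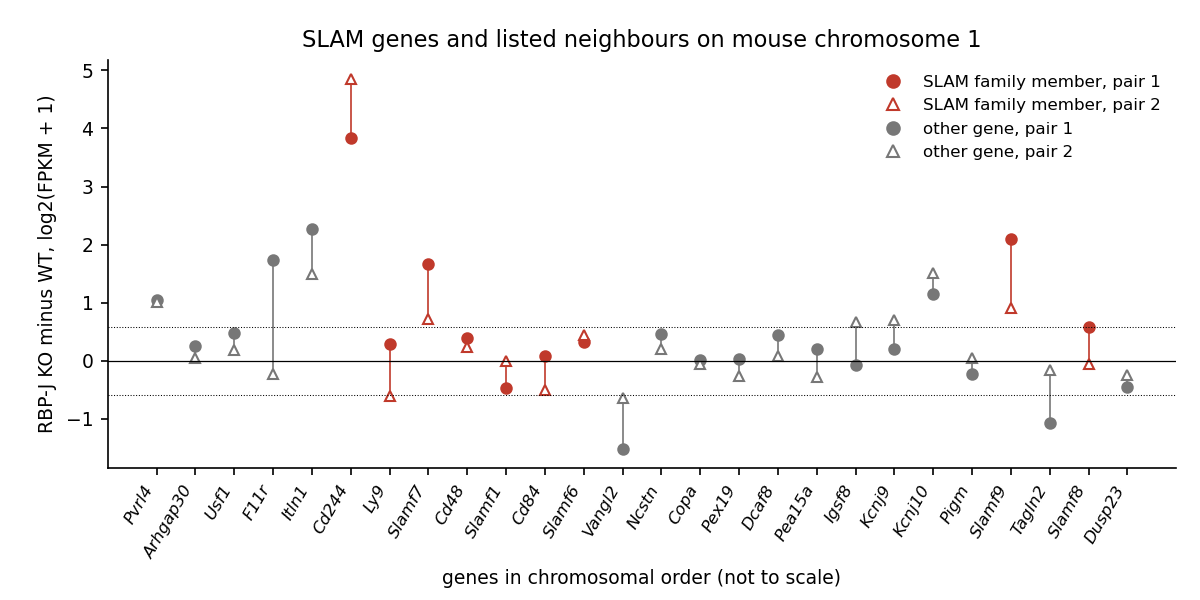
Difference RBP-J KO minus WT on the log2(FPKM + 1) scale in pair 1 (circles) and pair 2 (triangles) for the SLAM family members (red) and the 17 measured neighbours (grey), in chromosomal order and not to scale. Cd244 stands at 3.84 and 4.86, while the adjacent Ly9 is at 0.29 and -0.61.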

How the data were processed

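One file of values for each library was deposited by the authors. The submitters' processing notes name TopHat, Cufflinks and mm9, without versions or options. The deposited values were taken to be FPKM, the unit Cufflinks writes, because the file headers name none; their absolute scale is unclear. Transcripts of the replicate 2 libraries were summed by symbol (each SLAM member has 1), and 25 symbols turned into dates were restored. Genes above 0 numbered 12522 and 12142 in RBP-J KO and 12707 and 12165 in WT.

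Values were analysed as log2(FPKM + 1), and 11851 genes averaging 1 FPKM or more, all 9 members among them, were tested. The limma 3.58.1 model (R 4.3.3) had a group term and a variance trend, with two-sided tests and Benjamini-Hochberg adjustment over all genes tested, and was tested on simulated data. A gene was counted as 1.5-fold in both pairs when it reached that difference with the same sign in each replicate number. Members, lists and the rule for named genes (the members, the adaptors, partners and neighbours at 1.5-fold in both pairs, and the 5 genes nearest to Cd244) were chosen with earlier results of these data known, and other genes were named after their values were seen. Promoters and gene order are from RefSeq (GRCm38.p6), where 8 of 9 members had a promoter entry. Of 29 partners 28 had an entry in the files; some listed genes enter the counts and sums but are not reported here by name. Alternatives were other pseudocounts, filters and scalings, the highest transcript per symbol, each library left out, no variance trend, and the replicate number as a block.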

Additional observations from a re-analysis of the deposited data

How the results depend on the processing

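Cd244 kept its direction in all alternatives run, with log2 differences between 3.36 (pseudocount 5) and 4.86 (pair 2 alone, an alternative added after the data were seen, like pair 1 alone). The count of members at least 1.5-fold in both pairs was 3 in the alternatives run on both pairs and in pair 1 alone, and 4 in pair 2 alone, where Ly9 was lower. The median log2 difference of the members ranged from -0.079 to 1.03 when single libraries were left out, leaving replicate numbers unequal between groups. The count of neighbours was 2 with pseudocount 5 and 2 at a mean of at least 5 FPKM, where Itln1 and Vangl2 are not tested, against 4 as reported. In pair 1 alone 2656 genes and 9 partners reached 1.5-fold, and in pair 2 alone 1738 genes and 5 partners, against 887 and 3 in both pairs, which is a stricter demand by construction. No alternative gave a gene past the adjusted threshold. The labels do not say that equal replicate numbers pair the libraries, although the deviations of libraries of equal number correlated over genes (r = 0.64). With the replicate number as a block in limma, 0 genes passed the adjusted threshold and 1557 had an unadjusted p under 0.05, against 524 without the block. The smallest adjusted p (limma and Benjamini-Hochberg) was 0.0642 with the block and 0.294 without it. The SE values given for single genes are from the fit without the block. Counts over both pairs cannot be had with a library left out. The depth of the libraries is unknown, so no counting error can be given for low values. This applies to Slamf1, Slamf8 and Sh2d1b1, at or near 0 in some libraries, and to the WT values of Cd244.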
